A study of Mus musculus with 2 samples.

Results

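Genes of iron handling and metal binding were followed in sorted cells of mouse tumors after injection of vehicle or clodronate. They were chosen by name as a set of related functions, and each symbol matched 1 row in both libraries, so the set is 10 of 22886 genes, all of which passed a minimum mean of 1 RPKM. Lewis lung carcinoma (LLC), a transplantable mouse lung tumor, had been grown under the skin of wild type C57BL/6 mice, and the labels describe the sorted cells as aerobic tumor cells. One group received the vehicle (Veh) and the other clodronate (Clod), a drug that kills phagocytes when it is carried into them in liposomes. There was 1 library of polyA RNA for each injection. The labels give no age, sex, dose, time or number of mice, and no gate of the sort. A growth protocol in the labels names EML cells, a blood progenitor line, which conflicts with the tumor. The libraries were rich in macrophage RNA, with Lyz2 at 10534 and 11189 RPKM. Of 8 epithelial genes 5, among them Epcam, were listed at 0 in both libraries. Cdh1, Krt8 and Krt18 had between 1.33 and 6.44 RPKM. These few markers did not bear out the label of tumor cells. No marker particular to LLC was examined, so the presence of tumor cells was not tested. With 1 library per condition no difference had a replicate check, no p-value was computed, and mice, sorts and library preparations cannot be told apart from the injection.

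Cells take up iron bound to transferrin through the transferrin receptor, or recover it from heme. Iron that is not used is stored in ferritin or leaves the cell through ferroportin. Iron regulatory proteins bind hairpins in the messenger RNAs of several of these genes when iron is scarce, which blocks translation where the hairpin stands before the coding sequence and stabilizes the messenger RNA where it stands after it. Macrophages recycle the iron of red blood cells, and heme is a known inducer of heme oxygenase. Metallothioneins are small, cysteine-rich proteins that bind zinc and copper, and zinc acts on their genes through the transcription factor MTF-1 at short metal response elements.

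Because several of these genes, though not all, share the hairpins, the sites found in the set are shown first. The pattern searched in mouse transcripts of GENCODE M21 was a C, a stem of 5 paired bases and a loop CAGTGN whose last base is not G, with G to T pairs allowed. At least 1 coding transcript held it for 222 of 21877 coding genes (1.01%), and 4 members held 7 sites. In each line below the loop is in capitals, and positions are on GRCm38.
Fth1, 5′ UTR, chr19:9982732-9982761, plus strand: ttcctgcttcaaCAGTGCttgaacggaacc
Ftl1, 5′ UTR, chr7:45459778-45459807, minus strand: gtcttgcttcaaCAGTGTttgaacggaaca
Slc40a1, 5′ UTR, chr1:45925464-45925493, minus strand: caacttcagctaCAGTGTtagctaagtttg
Tfrc, 3′ UTR, chr16:32631219-32631248, plus strand: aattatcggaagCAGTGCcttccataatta
Tfrc, 3′ UTR, chr16:32631598-32631627, plus strand: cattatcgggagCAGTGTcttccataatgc
Tfrc, 3′ UTR, chr16:32631663-32631692, plus strand: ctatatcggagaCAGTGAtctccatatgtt
Tfrc, 3′ UTR, chr16:32631710-32631739, plus strand: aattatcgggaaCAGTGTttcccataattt
The 3 genes of storage and export carried the site before the coding sequence and the uptake receptor carried 4 after it. The libraries measure RNA, so a block of translation would not be seen in them. A match is a description of letters and not a measured site. The pattern is strict, so a hairpin that departs from it would be missed, and a member with no match may still carry one.

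In these libraries heme oxygenase stood higher and ferroportin lower after clodronate, while both ferritin chains stayed within 1.12-fold. Values are RPKM, reads scaled to transcript length and library size, and the log2 ratio is that of clodronate over vehicle after 1 RPKM was added to each. Of the 10 members 0 differed at least 3-fold in either direction, where 5.18% of the 10982 genes kept did (2.86% higher and 2.32% lower in the clodronate library). At 2-fold on this scale the members numbered 0 as well, against 13.7% of all genes kept (6.95% higher and 6.77% lower), although Hmox1 and Slc40a1 lay just inside that limit. Slc40a1 was past it in plain RPKM, and each of the 2 genes was past it under some of the other ways of processing. Of the members 5 were higher and 5 lower, beside 51.6% of all genes kept above 0 and 48.4% below. Their median log2 ratio was -0.0032, beside 0.019 for all genes kept. The members took 1.42% of the summed RPKM of the vehicle library and 1.56% of that of the clodronate library.

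**Figure D1:**
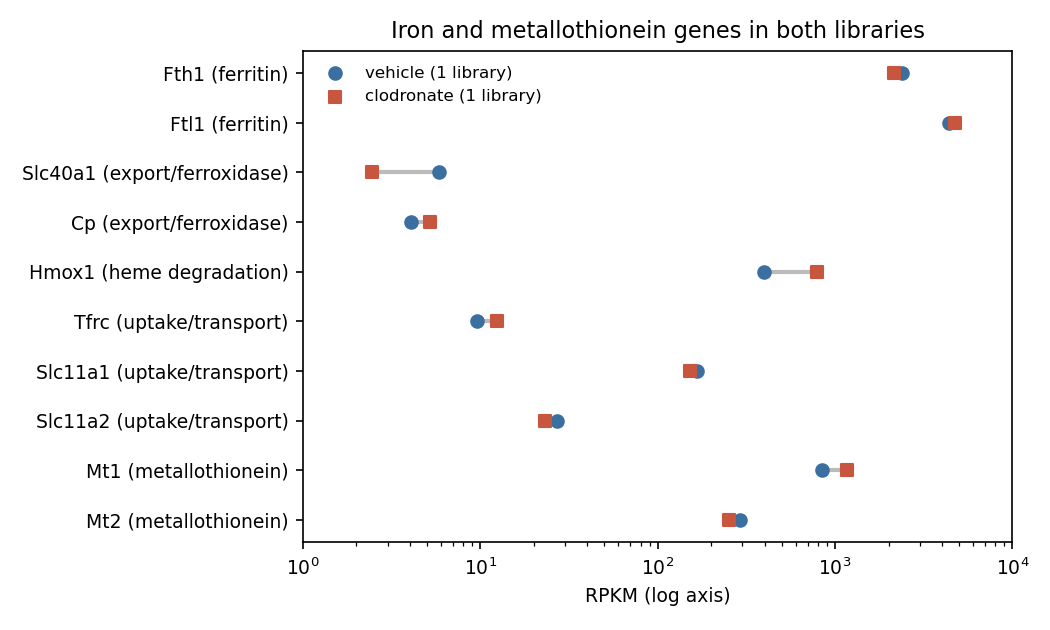
RPKM of the 10 genes in the vehicle library (circles) and the clodronate library (squares), on a log axis, with a grey line joining the 2 values of a gene. Ftl1, at 4387 and 4766 RPKM, is at the right end, and the widest gaps are those of Slc40a1 and Hmox1.

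Levels spread over 3 orders of magnitude, and the order of the genes was almost the same in both libraries. In the vehicle library it ran Ftl1, Fth1, Mt1, Hmox1, Mt2, Slc11a1, Slc11a2, Tfrc, Slc40a1 and Cp. In the clodronate library Cp stood above Slc40a1, and the other places were the same. With no replicate, neighbours in this order cannot be said to differ beyond their spread. The mean was above 100 RPKM for 6 members and below 30 RPKM for 4.

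Ferritin stores iron in a shell of heavy chains, which oxidize it, and light chains, which help form its mineral core. Ftl1, the light chain (NM_010240, mm9 chr7:52713314-52715256), had 4387 RPKM with vehicle and 4766 RPKM with clodronate, with ranks of 12 and 7 among the genes kept. Fth1, the heavy chain (NR_073181, mm9 chr19:10055090-10059601), had 2396 and 2142 RPKM, with ranks of 31 and 32. Both chains were thus among the most abundant RNAs of either library. The log2 ratio was 0.12 for Ftl1 and -0.16 for Fth1, so that the chains moved apart slightly. Their sum was 6783 RPKM with vehicle and 6908 RPKM with clodronate, a log2 ratio of 0.026. Light over heavy chain RNA was 1.83 and 2.23. The level of Fth1 depends on the transcript length the authors divided by, which is not given in the sources used here. Its row lists only a RefSeq accession that was matched to a length of 1494 bases, while a coding transcript of Fth1 has 929 bases. For Ftl1, 78.9% of all windows of 50 bases in its transcript also occur in transcripts of 15 other genes, with Ftl1-ps1 sharing the most, so its reads could have been split or pooled with those of copies. For Fth1 this share was 6.59%.

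Hmox1, heme oxygenase 1 (NM_010442, mm9 chr8:77617517-77624492), opens the ring of heme and frees its iron, with biliverdin and carbon monoxide as the other products. It had 396 RPKM with vehicle and 789 RPKM with clodronate, 1.99-fold higher, with a log2 ratio of 0.99. Its rank went from 235 to 122. The ratio was above those of 93.0% of all genes kept. Among the 1099 genes in the highest of 10 bins of mean level, 49 (4.46%) had a ratio at least as high, which is given as a description of these libraries. No window of 50 bases of its transcript occurred in another gene.

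Slc40a1 encodes ferroportin, the exporter of iron from cells (NM_016917, mm9 chr1:45964915-45982439). It had 5.87 RPKM with vehicle and 2.46 RPKM with clodronate, 2.38-fold lower in plain RPKM, and a log2 ratio of -0.99 after 1 RPKM was added. These values correspond to about 253 and 87 reads, from a read total estimated from the steps between low values. A ratio as low was found for 110 of 1098 genes in its bin of level. Cp, ceruloplasmin, a copper ferroxidase that oxidizes iron as it leaves the cell (NM_001042611 and NM_007752, mm9 chr3:19857054-19935310), had 4.05 and 5.17 RPKM, about 209 and 218 reads, and a log2 ratio of 0.29. The exporter and its ferroxidase therefore lay on opposite sides of 0, but 34.8% of genes in the bin of Cp had a ratio at least as high. Hmox1 over Slc40a1, a ratio chosen after the values were seen, was 67.5 in the vehicle and 321 in the clodronate library.

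**Figure D2:**
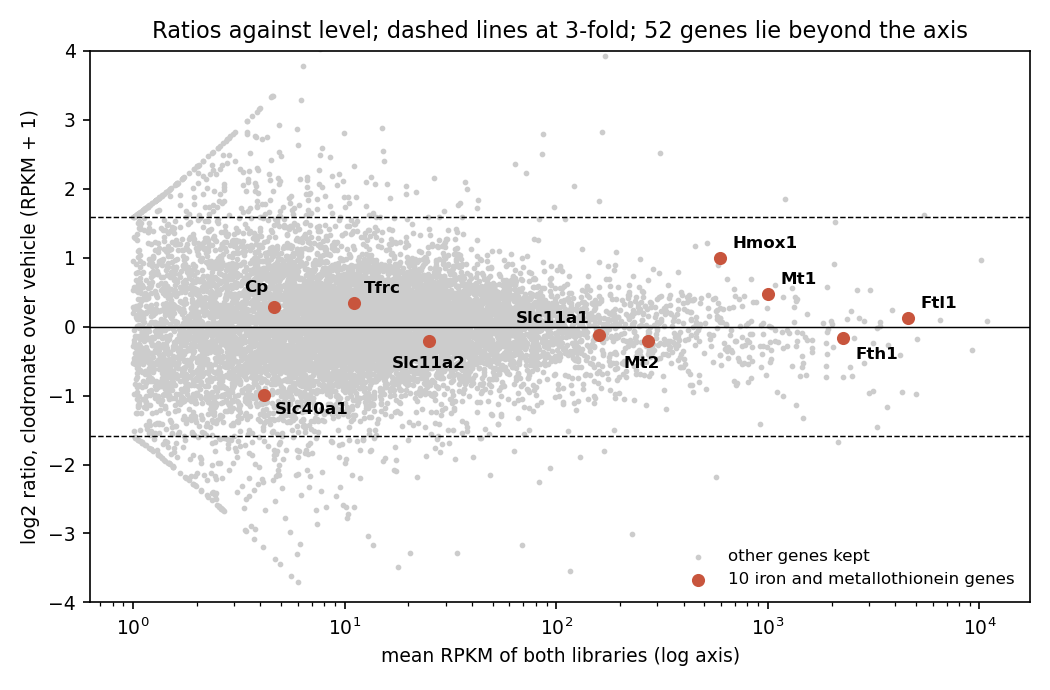
Log2 ratio of clodronate over vehicle (vertical) against the mean RPKM of both libraries on a log axis, for the 10 genes (red, named) and all other genes kept (grey), with dashed lines at 3-fold. All 10 members lie between the dashed lines, with Hmox1 highest at 0.99 and Slc40a1 lowest at -0.99, and 52 other genes lie outside the vertical range shown.

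Genes of uptake and of transport across internal membranes differed little. Tfrc, the transferrin receptor (NM_011638, mm9 chr16:32608982-32632880), had 9.63 and 12.4 RPKM, about 603 and 635 reads, and a log2 ratio of 0.34. It is the member with matches to the searched hairpin pattern after the coding sequence. Slc11a1, NRAMP1, which moves iron and manganese out of the phagosome of macrophages (NM_013612, mm9 chr1:74421777-74432625), had 167 and 153 RPKM and a log2 ratio of -0.13. Slc11a2, DMT1, which carries ferrous iron out of endosomes (NM_001146161 and NM_008732, mm9 chr15:100218331-100253486), had 26.9 and 23.2 RPKM and a log2 ratio of -0.20. The phagosomal transporter was thus several times as abundant as the endosomal one in both libraries. In their bins of level, 27.6%, 40.8% and 28.7% of genes had ratios at least as far in the same direction as Tfrc, Slc11a1 and Slc11a2.

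The metallothionein genes lie next to each other and moved in opposite directions. Mt1 (NM_013602, mm9 chr8:96702989-96704227) had 841 RPKM with vehicle and 1166 RPKM with clodronate, a log2 ratio of 0.47. Mt2 (NM_008630, mm9 chr8:96696518-96697467) had 293 and 252 RPKM, a log2 ratio of -0.21. Mt1 exceeded Mt2 in both libraries, by 2.87 in the vehicle and 4.62 in the clodronate library. The sum of both was 1134 and 1419 RPKM, a log2 ratio of 0.32, with Mt1 higher and Mt2 lower. Ratios at least as high as that of Mt1 were found for 11.3% of genes in its bin of level, and ratios as low as that of Mt2 for 34.1%. No window of 50 bases was shared exactly by Mt1 or Mt2 with another gene. Mismatches and other read lengths were not searched, so how well their reads could be told apart was not tested. Mt3 and Mt4, the other genes of the cluster, were listed at 0 in both libraries, except for 0.531 RPKM of Mt3 in the clodronate library.

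The 250 bases before each start of Mt1 and Mt2 are shown because these neighbours share a known regulator and yet differed in direction. The difference in direction was slight for Mt2. Once trends with GC content and transcript length were removed, the log2 ratios were 0.45 for Mt1 and -0.062 for Mt2. The bases are from RefSeq on GRCm38.p6, and capitals mark matches to the metal response core, TGCACNC or TGCGCNC, on either strand.
Mt1, chr8:94178839-94179088, plus strand: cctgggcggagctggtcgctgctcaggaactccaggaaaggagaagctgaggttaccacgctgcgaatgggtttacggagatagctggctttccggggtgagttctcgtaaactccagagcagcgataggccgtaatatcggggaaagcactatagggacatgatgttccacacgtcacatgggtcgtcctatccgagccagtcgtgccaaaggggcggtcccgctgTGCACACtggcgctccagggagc
Mt2, chr8:94172368-94172617, plus strand: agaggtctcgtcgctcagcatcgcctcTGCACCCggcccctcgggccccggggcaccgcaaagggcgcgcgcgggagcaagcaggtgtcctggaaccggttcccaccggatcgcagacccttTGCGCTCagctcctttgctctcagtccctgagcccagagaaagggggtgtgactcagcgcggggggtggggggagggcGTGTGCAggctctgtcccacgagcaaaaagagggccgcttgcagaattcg
Within these windows Mt1 held 1 match and Mt2 held 3. Only the 250 bases before the annotated start were searched, so matches farther upstream or past that start were not counted. The counts therefore depend on where the start is placed, and their part in the difference of direction was not tested. Of 32851 windows of the same length in the table, 21.4% held at least 1 match and 1.26% held 3 or more. Mt2 also held 1 match to the core of the antioxidant response element, TGACNNNGC, which 10.2% of windows held on either strand. In all, 7 of the 10 members had a window in the table, and the windows of Fth1, Ftl1, Cp and Slc11a1 held no match to either metal response core. A window of Tfrc held 2 matches to TGCGCNC, on opposite strands and overlapping.

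The wider iron genes were taken from 5 lists of 54 genes, all found in the files, of which 43 passed the minimum level. Of these 20 were higher and 23 lower in the clodronate library, 0 differed at least 3-fold on the scale with 1 RPKM added, beside 5.18% of all genes kept, and the median log2 ratio was -0.034. At 2-fold 3 were higher and 2 lower, beside 6.95% and 6.77% of all genes kept, so these counts do not set the lists apart. All of these but Urod were named after their values were seen. Higher were Cd163, the receptor that takes up hemoglobin bound to haptoglobin, at 17.5 and 42.4 RPKM, Steap3, an endosomal reductase that readies iron for DMT1, at 14.4 and 31.5 RPKM, and Urod, an enzyme of heme synthesis, at 8.45 and 20.2 RPKM. Lower were Hp, haptoglobin, at 3.69 and 0.779 RPKM, which is 4.73-fold lower in plain RPKM, and Hscb, a chaperone of iron-sulfur clusters, at 15.0 and 5.92 RPKM.

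In the list of heme scavenging and breakdown 3 of 6 genes kept were higher and 3 lower, with a median log2 ratio of 0.21. Lrp1, a receptor for heme bound to hemopexin among many other ligands, had 225 and 386 RPKM, and Hmox2, the constitutive heme oxygenase, had 97.4 and 137 RPKM. The biliverdin reductase genes lay slightly below 0. Blvrb had 78.9 and 75.5 RPKM, a log2 ratio of -0.064, and Blvra had 45.0 and 39.6 RPKM, a log2 ratio of -0.18. Among transport genes 7 of 12 were higher and 5 lower, with a median of 0.038. The abundant ones were Trf, transferrin, at 58.1 and 71.6 RPKM, Slc48a1, which exports heme from the phagolysosome, at 54.0 and 76.3 RPKM, Mcoln1, a lysosomal channel, at 47.2 and 37.9 RPKM, and Slc25a28, a mitochondrial iron importer, at 41.9 and 32.2 RPKM.

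Of the genes of iron regulation and ferritin turnover 4 were higher and 3 lower, with a median of 0.17. Pcbp2 and Pcbp1, which deliver iron to ferritin, had 94.0 and 123 RPKM and 79.1 and 88.8 RPKM. Hfe, a partner of the transferrin receptor, had 62.8 and 45.5 RPKM, and Fbxl5, which targets an iron regulatory protein for decay, had 29.0 and 23.4 RPKM. Hamp, the gene of hepcidin, the hormone that degrades ferroportin, was listed at 0 in both libraries, as were Hamp2, Tfr2, Bmp6 and Hfe2.

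In heme synthesis 5 of 8 genes were higher and 3 lower, with a median log2 ratio of 0.016. Alas1, the first enzyme, had 28.7 and 28.2 RPKM, and Fech, the last, had 16.6 and 16.8 RPKM. In iron-sulfur cluster assembly 9 of 10 genes were lower and 1 higher, with a median of -0.58, beside 48.4% of all genes kept below 0 and 51.6% above. The scaffold gene Iscu had 75.3 and 49.7 RPKM, Nfu1 51.6 and 35.7 RPKM, Isca1 48.1 and 30.4 RPKM and Bola3 34.2 and 31.0 RPKM. Ratios in these libraries went with GC content and transcript length, and after both trends were removed the median of this list was -0.37.

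**Figure D3:**
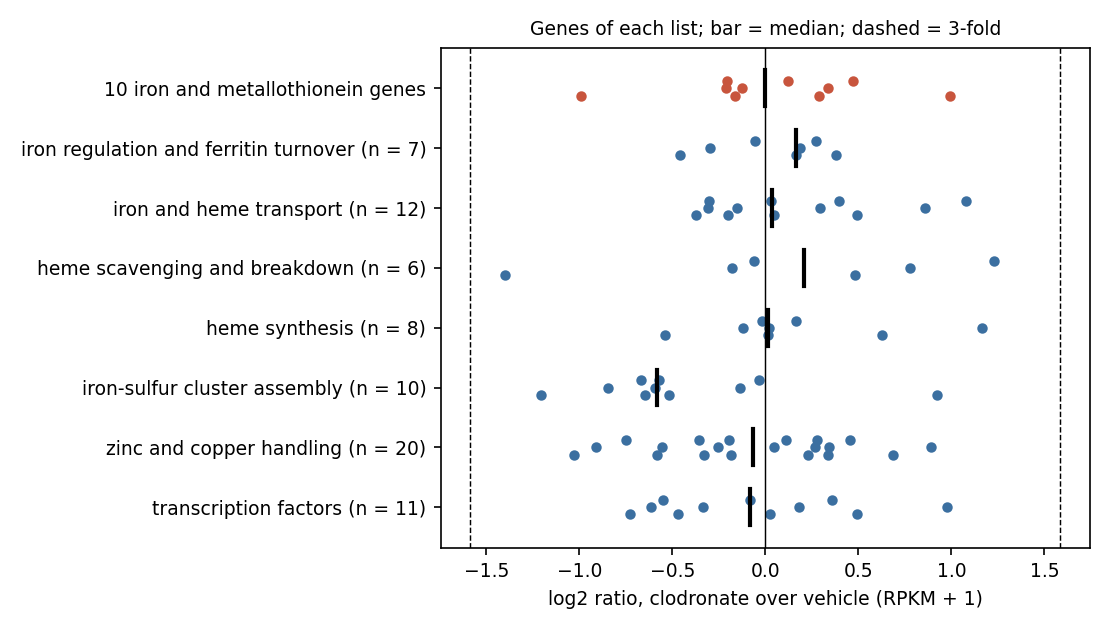
Log2 ratio of clodronate over vehicle (horizontal) for each gene kept of the 10 members (red) and of 7 wider lists (blue), with a black bar at the median of a list and dashed lines at 3-fold. Every gene shown lies inside the dashed lines, and the list of iron-sulfur cluster assembly has the lowest median, -0.58.

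Genes of zinc and copper handling were split evenly, with 10 of 20 higher and 10 lower and a median of -0.069. Atox1, a copper chaperone, was the most abundant at 1039 and 618 RPKM. At 2-fold 0 of the 20 were higher and 1 lower, beside 6.95% and 6.77% of all genes kept. The lower one was Ccs, which loads copper into superoxide dismutase, at 8.67 and 3.75 RPKM. Slc39a1, a zinc importer, had 58.4 and 70.4 RPKM, Cox17, a copper chaperone of mitochondria, 23.7 and 44.7 RPKM and Slc39a7 26.8 and 32.8 RPKM. Mtf1 had 5.97 and 5.09 RPKM and Slc30a1, a zinc exporter that MTF-1 also controls, had 5.15 and 4.16 RPKM. Their log2 ratios were -0.20 and -0.26, and both genes were named after their values were seen. The part of MTF-1 in the values of Mt1 and Mt2 was not tested.

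Among 11 transcription factors known to act on Hmox1, ferritin or metallothionein genes 5 were higher and 6 lower, with a median of -0.082. Nfe2l2, the gene of NRF2, had 148 and 106 RPKM and Bach1, the repressor that heme releases from Hmox1, had 42.7 and 40.3 RPKM. Hif1a had 56.6 and 57.5 RPKM and Nr1h3 27.2 and 31.0 RPKM. The lowest ratio of this list was that of Spic, a factor of iron-recycling macrophages, at 2.46 and 1.09 RPKM, a log2 ratio of -0.73. The highest was that of Mafk, at 18.5 and 37.4 RPKM, a log2 ratio of 0.98. Spic and Mafk were named after their values were seen.

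Markers of cell types give the setting of these values. The macrophage list of 16 genes summed to 30581 RPKM with vehicle and 27934.5 RPKM with clodronate, with 8 genes higher, 8 lower and 0 listed at 0 in both, and Lyz2 was the most abundant gene of the vehicle library, whereas of 8 epithelial genes 5 were listed at 0 in both and the highest, Cdh1, had 6.14 and 6.44 RPKM. Of 10 erythroid genes 7 were found, 5 of them listed at 0 in both libraries, among them Hba-a2 and Alas2, and their sum was 1.44 and 1.86 RPKM. The globin genes Hba-a1, Hbb-b1 and Hbb-b2 were not found, so that sum leaves them out. The fibroblast list fell in sum from 158 to 78.5 RPKM, with 6 of 8 genes lower, 2 higher and 0 of 10 listed at 0 in both. Dcn had 77.3 and 28.4 RPKM and Col3a1 62.1 and 34.4 RPKM. The higher ones were Col1a1, at 2.32 and 5.40 RPKM, and Acta2, at 0.138 and 2.03 RPKM. Ferroportin was lower, as were the sums of the fibroblast, macrophage, epithelial, T and NK cell and B cell lists. The sums of the erythroid, neutrophil and endothelial lists were higher. The part of any cell type in the value of ferroportin was not tested. Among neutrophil genes 7 of 8 were listed at 0 in both libraries, and S100a8 had 12.7 and 23.1 RPKM. In the endothelial list 3 of 8 genes were listed at 0 in both, and the sum was 3.34 and 7.90 RPKM. The sums of the T and NK cell list were 11.1 and 8.74 RPKM, with 3 of 7 genes found listed at 0 in both, and of the B cell list 2.99 and 1.86 RPKM, with 2 of 6. In RNA of mixed cells, fewer cells of a type and less RNA per cell cannot be told apart.

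**Figure D4:**
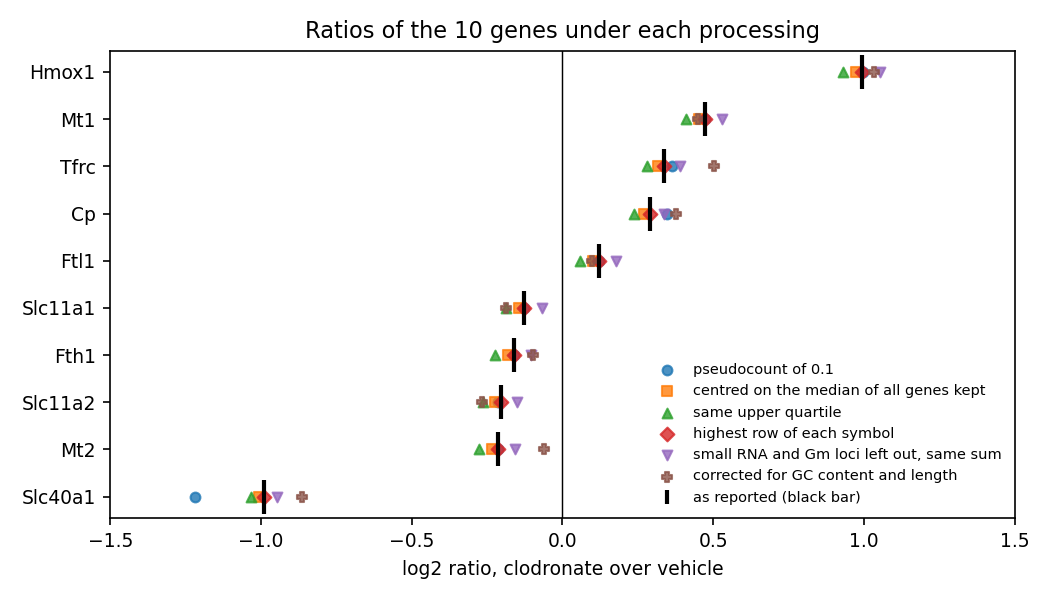
Log2 ratio of clodronate over vehicle (horizontal) of the 10 genes as reported (black bars) and under 6 other ways of processing (coloured symbols). Every gene keeps its side of 0 under each, with Hmox1 between 0.93 and 1.05 and Slc40a1 between -1.22 and -0.86.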

How the data were processed

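Per the labels, polyA RNA of sorted tumor cells was sequenced, 1 library per injection. The authors deposited RPKM values for 23170 loci in each library. The submitters' processing notes name CASAVA 1.8.2, TopHat2 2.0.9, Bowtie 0.12.9, Cufflinks 2.2.1, Cuffdiff and the build mm9. The annotation release is not given in the sources used here. Starts were counted from 0 in the files and are printed from 1. The RefSeq accession stood in for 26 symbols that were numbers. RPKM were summed by symbol into 22886 genes, and 10982 reached the minimum mean of 1 RPKM. RPKM are not counts, so no count test was run. Summed RPKM were 601579 (vehicle) and 596143 (clodronate). Read totals were estimated from the lowest steps of RPKM times length over transcripts of at least 2000 bases, at 12.8 M and 10.5 M reads. Of the low values, 77.5% and 71.4% lay within 0.1 of a whole read. Reads per gene are therefore approximate, and intervals for counting error made from them served only to judge whether an alternative moved a member.

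Named were all members, the most abundant 4 genes of each wider list, any listed gene at least 3-fold different, and the leading markers, except that some listed genes are not reported here. Any further gene was picked with its values in view. Members and lists were chosen with earlier results of these data known. The code of the fold rule was tested on simulated data with large changes and little noise, which gives no error rate for these libraries. The alternatives were a pseudocount of 0.1, other scalings, filters, folds and rows, and removal of trends with GC content and length in 10 bins each, with values for 98.7% of genes. Python 3.11.15, numpy 2.4.6, pandas 2.3.3, scipy 1.17.1 and matplotlib 3.10.9 were used.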

Additional observations from a re-analysis of the deposited data

How the results depend on the processing

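No paired analysis was possible because there was only 1 library per injection. The log2 ratios of all 10 members kept their sign under the 6 alternatives that apply to single genes, and the smallest ratios came closest to 0 for Ftl1 at 0.057 and Mt2 at -0.062. No member reached 3-fold under any alternative, but the count of 0 members at 2-fold did not hold. Slc40a1 had -1.22 with a pseudocount of 0.1, -1.01 after centring and -1.03 with the same upper quartile, and Hmox1 had 1.05 without small RNA and Gm loci and 1.03 once trends with GC content and length were removed, all past 2-fold. The highest row of each symbol changed no member, since each has 1 row. Counts of genes at least 3-fold higher and lower were 314 and 255. They were 532 and 480 with a pseudocount of 0.1, 763 and 744 at 2-fold, and 127 and 101 at a minimum mean of 5 RPKM, which by construction changes how many genes can pass.

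The median of the members lay near 0 and changed sign to 0.055 without small RNA and Gm loci and to 0.018 once trends with GC content and length were removed. The median of heme synthesis turned to -0.0031 after centring, -0.041 with the same upper quartile and -0.059 after that correction, and that of iron and heme transport to -0.013 with the same upper quartile. The iron-sulfur list had -0.37 after the correction. With no filter the median of iron regulation was 0, since genes listed at 0 enter it. At a minimum mean of 5 RPKM the list of heme scavenging and breakdown had 0.48 and that of transcription factors 0.022, over fewer genes. The cause of the other changes was not tested. The depth is estimated only, and values near 1 RPKM depend on the pseudocount.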
